A study of Mus musculus with 6 samples.

Results

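The 35 genes described here carry out DNA replication or mark the S phase of the cell cycle, and were measured in kidney glomeruli of mice with and without an inherited autoimmune kidney disease. They were chosen by name: the 6 subunits of the MCM helicase, the factors that load and start it, polymerases, clamp and clamp loader, enzymes that join the lagging strand or supply nucleotides, G1/S regulators, and genes that rebuild chromatin behind the fork. All 35 had probes on the array, which carried 34844 gene names. A gene was tested where all 3 arrays of at least 1 strain measured a probe well above background, and took the value of its brightest such probe. This held for 31 of the 35 and for 20716 genes in all.

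Glomeruli, the filtering units of the kidney, came from male mice aged 4 months. BXSB/MpJ-Yaa males carry the Yaa mutation, a piece of the X chromosome copied onto the Y, and develop autoimmune glomerulonephritis. BXSB/MpJ-Yaa+ males, the controls, have the ordinary Y chromosome of the same background, which descends from a C57BL/6 female and an SB/Le male. Beads perfused into the kidney were used to isolate glomeruli, and the 6 glomerular populations of each strain were pooled 2 at a time, giving 3 one-colour (Cy3) Agilent arrays per strain, called control and Yaa replicates 1 to 3. Each array therefore averages over its pool, the mutation is present in every cell of the Yaa males, and p-values measure the spread between pools.

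Before a cell copies its DNA, Cdc6 and Cdt1 load the ring of Mcm2 to Mcm7 onto origins, where it stays inactive. At the start of S phase Cdc45 and the GINS complex join the ring and turn it into the moving helicase, primase and polymerases follow, and the clamp Pcna holds the polymerases on the template. E2F transcription factors switch on many of these genes at the G1/S boundary, and most differentiated cells of the adult glomerulus divide rarely.

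Since the members share this regulation as background, their promoters were searched for the letters of the E2F site. RefSeq promoter windows on GRCm38.p6, each with 250 bases before and 50 after the start, were found for 30 of the 35 genes, giving 35 windows because some genes have several starts. Mcm4, Gins1, Gins2, Pole and Ccne2 were not searched. The octamers TTTCGCGC, TTTGGCGC, TTTCCCGC and TTTGCCGC were searched on both strands, and hits that overlap were counted as 1 site. At least 1 site was present in 11 of the 35 windows (31.4%), against 2.26% of 32851 mouse promoter windows and 3.42% of those of the genes tested. The pentamer CCAAT, searched separately on both strands and free to share an edge letter with an octamer, was present in 19 of 35 windows (54.3%) against 37.4% of all.
The stretches below show where the letters lie before the start in 4 genes, with sites in capitals, followed by the 60 bases just before the start of the 4 genes that rose in Yaa glomeruli, where none was found. Each reads 5′ to 3′ along the gene's own strand.
Mcm5, chr8:75109332-75109391, plus strand: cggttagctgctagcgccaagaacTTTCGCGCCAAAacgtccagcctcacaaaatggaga
Mcm6, chr1:128359719-128359778, minus strand: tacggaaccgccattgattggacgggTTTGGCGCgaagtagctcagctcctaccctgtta
Cdc6, chr11:98907987-98908046, plus strand: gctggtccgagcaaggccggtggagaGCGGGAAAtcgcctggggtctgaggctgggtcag
Pola1, chrX:93632260-93632319, minus strand: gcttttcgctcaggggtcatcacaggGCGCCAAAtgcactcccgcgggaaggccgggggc
Tk1, chr11:117826015-117826074, minus strand: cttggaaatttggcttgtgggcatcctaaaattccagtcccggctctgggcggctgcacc
Rrm2, chr12:24708194-24708253, plus strand: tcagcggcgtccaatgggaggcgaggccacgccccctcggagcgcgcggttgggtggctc
Uhrf1, chr17:56303277-56303336, plus strand: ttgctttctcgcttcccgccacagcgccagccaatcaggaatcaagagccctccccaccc
Cdt1, chr8:122567955-122568014, plus strand: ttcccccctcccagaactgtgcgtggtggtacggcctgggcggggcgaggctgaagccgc
In Mcm5 a pair of overlapping hits, 1 on each strand, begins at position -153 from the start, and the sites of Cdc6 and Pola1 both begin at -138. Elsewhere in their windows Cdt1 has a site at 33 bases after its start, and Uhrf1 has one at -185 from its second start. No octamer was found in the windows of Rrm2 and Tk1, which says only that these letters are not in them. A site was present in 2 of the 5 windows of the members that rose and in 7 of the 28 windows of members that did not pass. Over all genes that rose in Yaa glomeruli it was present in 17 of 488 windows (3.48%), beside 3.42% for the genes tested.

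Title, description and genotype placed every array in the same strain, while the source name gave the other strain each time. Tlr7, which lies in the duplicated X segment, was at 1.60 to 1.67 on the arrays labelled control and at 2.48 to 2.60 on those labelled Yaa (log2 signal). The 75th percentile of the signal, to which each array was scaled, was 235 to 264 on the other 5 arrays and 377 on Yaa replicate 3, and 50.5% to 59.8% of spots were well above background. All arrays shared 1 slide and 1 scan, with the strains in different slide columns, so that column and strain cannot be told apart. Of 8 podocyte genes 7 were tested, among them Wt1, and none passed, with a median log2 fold change of -0.32.

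All 31 tested replication genes were measured above background on all 6 arrays. Of these, 4 rose in Yaa glomeruli, none fell and 27 did not pass (limma, adjusted p under 0.05 over all 20716 genes). Tk1, Rrm2, Uhrf1 and Cdt1 were the 4. Over all genes 3.81% passed, 2.96% higher and 0.850% lower. The median log2 fold change of the 31 genes, Yaa over control, was 0.49, beside -0.11 over all genes tested, and 29 were above 0 and 2 below, where 33.5% of all genes were above 0. In the alternatives that tested the same 31 genes, 27 to 31 of them were above 0. The 3 Yaa arrays all lay above the 3 control arrays for 18 of the 31 and below them for none, against 7.81% and 17.4% of all genes. At an unadjusted p under 0.05, 13 were higher and none lower (6.55% and 9.54% of all genes). In pools of whole glomeruli more cells of a type and more RNA per cell cannot be told apart.

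**Figure D1:**
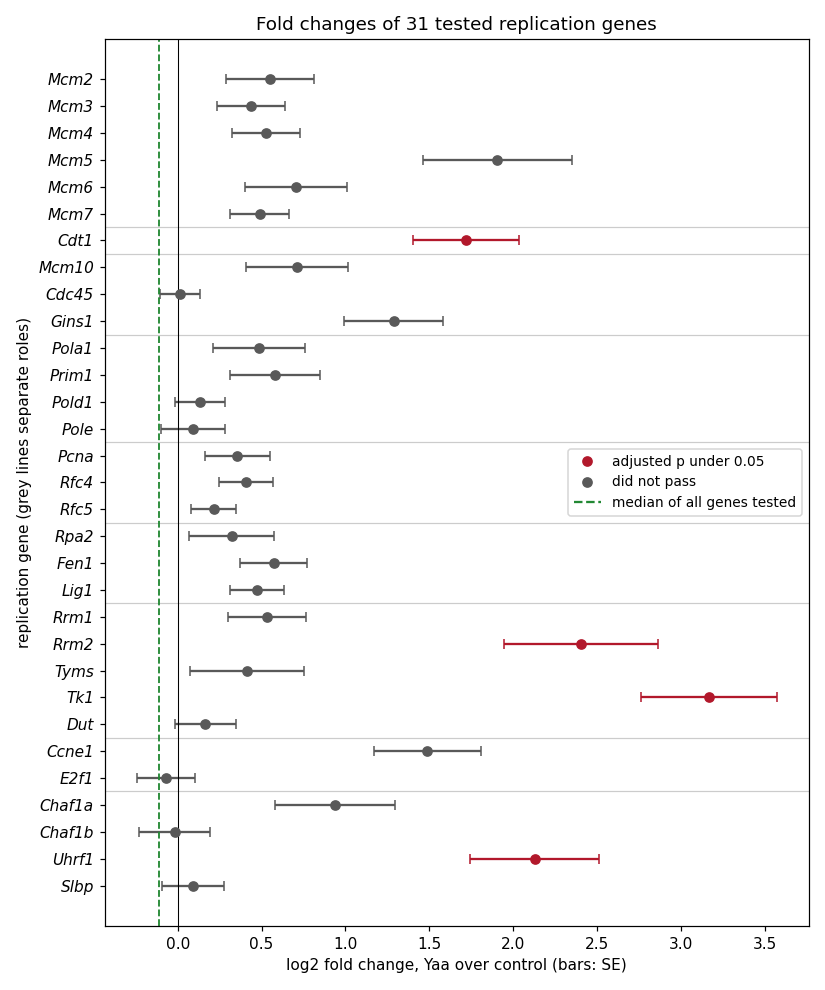
Log2 fold change of Yaa over control (x axis, bars are the SE, n = 3 arrays per group) for the 31 tested replication genes, in order of role, with the median of all genes tested as a dashed line at -0.11. The 4 genes past the test (red) lie between 1.72 and 3.17, and E2f1 and Chaf1b lie below 0, each with a sign that some alternatives turn.

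Values below are log2 signals after each array's 75th percentile was subtracted, so that a negative level is a signal dimmer than that percentile. Levels of different genes are not compared, since probes differ in brightness.

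The largest differences among the members were in nucleotide supply. Tk1 encodes the thymidine kinase that salvages thymidine for DNA synthesis. It was at -1.46, -1.67 and -2.19 on control replicates 1 to 3 and at 1.63, 0.50 and 2.04 on Yaa replicates 1 to 3. Every Yaa array was above every control array, by more than the spread within either strain. The log2 fold change was 3.17 ± 0.40 (SE, n = 3 per group), or 8.97-fold, with adjusted p = 0.00729 in limma. A second Tk1 probe, above background on 1 control array and all Yaa arrays, differed by 2.63 ± 0.56. It did not pass when all kept probes were tested (adjusted p = 0.0627 in limma). The remaining Tk1 probe was above background on no array.

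Rrm2, the regulated subunit of ribonucleotide reductase, which makes deoxyribonucleotides, was at -1.34, -1.41 and -1.25 in controls and at 1.31, -0.03 and 1.94 in Yaa glomeruli. The controls lay close together (SD 0.08) and the Yaa arrays far apart (SD 1.00), without overlap. Its log2 fold change was 2.40 ± 0.46 (adjusted p = 0.0388 in limma). Rrm1, the partner subunit, was at 0.42, 0.59 and 0.59 in controls and at 0.69, 0.92 and 1.57 in Yaa glomeruli, without overlap. It differed by 0.53 ± 0.23 and did not pass (adjusted p = 0.329).

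Tyms, thymidylate synthase, and Dut, which removes dUTP, did not pass either. Tyms was at -3.48, -2.87 and -2.83 in controls and at -1.93, -3.12 and -2.89 in Yaa glomeruli, so that only Yaa replicate 1 lay above the controls. Dut differed by 0.16 ± 0.18 with overlapping groups.

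Of the origin licensing factors, Cdt1 rose and Cdc6 was too dim to test. Cdt1 was at -0.20, -0.46 and -0.55 in controls and at 1.18, 0.75 and 2.02 in Yaa glomeruli. The groups were apart by more than the range of the controls, and the log2 fold change was 1.72 ± 0.32, or 3.29-fold (adjusted p = 0.0349 in limma). Neither Cdc6 probe stood well above background in controls, and they did so on 1 and 2 Yaa arrays. Against the lowest well-measured signal of the control arrays, Cdc6 was at least 1.35-fold higher with the first probe and at least 1.46-fold higher with the other. Both bounds use the mean of all Yaa arrays, so they rest partly on Yaa signals not above background.

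Uhrf1 reads hemimethylated DNA behind the fork and brings the maintenance DNA methyltransferase to it. It was at -1.20, -1.46 and -1.39 in controls and at 0.78, -0.04 and 1.60 in Yaa glomeruli, again with all Yaa arrays above all controls. The log2 fold change was 2.13 ± 0.38, or 4.37-fold (adjusted p = 0.0323 in limma). Another Uhrf1 probe was above background on no control array and on 2 Yaa arrays, and at least 1.09-fold higher by the mean of all Yaa arrays.

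The other genes of chromatin supply did not pass. Chaf1a, the large subunit of the histone chaperone CAF-1, was at -2.96, -2.76 and -2.71 in controls and at -2.13, -2.46 and -1.01 in Yaa glomeruli, without overlap (0.94 ± 0.36, adjusted p = 0.263). With normexp background correction the Chaf1a difference was 0.40. Chaf1b, the middle subunit, differed by -0.02 ± 0.21, and its second probe by 0.04, so that its sign depends on the probe. Slbp, which binds the stem-loop of histone mRNA, differed by 0.09 ± 0.18 on one probe and 0.50 ± 0.29 on the other, and neither passed.

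The probes of the 4 genes that rose are placed on the mm9 assembly, at chr11:117676845-117676904 for Tk1, chr12:25398824-25398883 for Rrm2, chr17:56462770-56462829 for Uhrf1 and chr8:125096893-125096952 for Cdt1. Whether they lie in coding sequence or an untranslated region is not given, as no mm9 annotation was used here. No member probe shared a run of 25 bases with a probe of another gene.

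Leaving out single arrays and pairing arrays by replicate number changed some of these calls. Tk1 passed under all 16 alternatives, with adjusted p from 0.00358 to 0.0469. With the replicate number as a block, Rrm2 (adjusted p = 0.0526), Uhrf1 (0.0507) and Cdt1 (0.0731) no longer passed in limma, so that 1 member remained higher. The same 3 genes also missed the threshold without control replicate 1 (0.0949 to 0.129), 2 (0.131 to 0.148) or 3 (0.136 to 0.146), and without Yaa replicate 1 (0.0592 to 0.0784). Without Yaa replicate 3, Rrm2 alone was lost (0.0617). Without Yaa replicate 2 the count was 5, with Gins1 added (0.0279). The lowest log2 fold change of the 4 genes in any alternative was 1.37, that of Cdt1 without Yaa replicate 3.

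**Figure D2:**
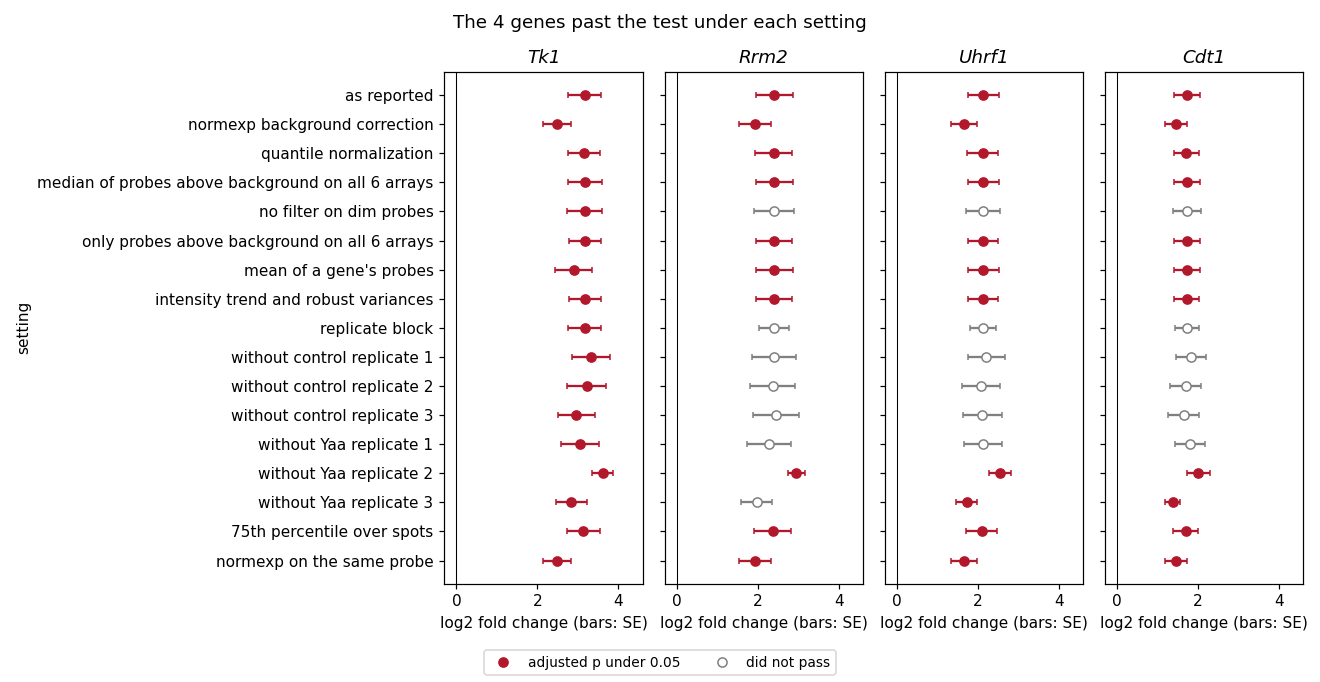
Log2 fold change (x axis, bars are the SE) of Tk1, Rrm2, Uhrf1 and Cdt1 as reported and under 16 alternatives (rows), with filled points for an adjusted p under 0.05. Tk1 stays filled in every row, between 2.48 and 3.61, while the other panels hold open points with values on the same side of 0.

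None of the 6 MCM helicase subunits passed, although in each of them all Yaa arrays lay above all control arrays. Their median log2 fold change was 0.54. Mcm5 had the largest difference, at -1.31, -1.89 and -0.97 in controls and -0.20, 0.27 and 1.46 in Yaa glomeruli. This gave 1.90 ± 0.44 with adjusted p = 0.0768 in limma, 0.0503 with the replicate block and 0.0437 without Yaa replicate 1.

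The other MCM subunits differed less, from 0.44 to 0.71. Mcm6 was at 2.64, 2.80 and 2.71 in controls and at 3.00, 3.12 and 4.15 in Yaa glomeruli (0.71 ± 0.30, adjusted p = 0.318). Mcm4 was at 1.70, 1.82 and 1.94 in controls and at 2.08, 2.20 and 2.77 in Yaa glomeruli. In both, Yaa replicates 1 and 2 were just above the controls and replicate 3 stood well apart.

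Mcm7 was at 2.28, 2.34 and 2.02 in controls and 2.72, 2.44 and 2.94 in Yaa glomeruli, with a difference of 0.49 ± 0.17 (adjusted p = 0.231). Mcm2 differed by 0.55 ± 0.26 and Mcm3 by 0.44 ± 0.20, with 0.44 on the second Mcm3 probe too.

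Among the genes that activate the helicase, the GINS subunit Gins1 was at -2.44, -2.34 and -2.56 in controls and at -1.23, -1.73 and -0.52 in Yaa glomeruli. The groups did not overlap, and the difference of 1.29 ± 0.29 missed the threshold (adjusted p = 0.0729 in limma). It was 0.74 with normexp background correction. Mcm10, which takes part in origin firing, differed by 0.71 ± 0.30, with Yaa replicate 2 inside the range of the controls. Cdc45, the other partner of the active helicase, was at -2.80, -2.80 and -2.94 in controls and at -2.75, -2.85 and -2.90 in Yaa glomeruli, a difference of 0.01 ± 0.12. Gins2 was above background on 1 control and 2 Yaa arrays and was not tested.

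The 4 polymerase and primase genes had a median of 0.31, and none had groups that did not overlap. Prim1, the catalytic primase subunit, was at 0.10, -0.26 and 0.24 in controls and at 0.49, 0.19 and 1.15 in Yaa glomeruli (0.58 ± 0.27, adjusted p = 0.348). Pola1, of the polymerase that extends the primers, differed by 0.49 ± 0.27. Pold1 and Pole, the catalytic subunits of the lagging and leading strand polymerases, differed by 0.13 ± 0.15 and 0.09 ± 0.19. Both lay within 1 SE of 0.

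Pcna, the sliding clamp and a common stain for dividing cells, did not pass. It was at 3.03, 3.06 and 3.47 in controls and at 3.51, 3.30 and 3.81 in Yaa glomeruli, where Yaa replicate 2 lay below control replicate 3. Its difference was 0.36 ± 0.19 (adjusted p = 0.413), and the placement of its only probe on mm9 spans 33 bases of a 60-base probe. Of the clamp loader subunits, Rfc4 differed by 0.41 ± 0.16 and Rfc5 by 0.22 ± 0.13, both without overlap. The second Rfc4 probe gave 0.37, and the second Rfc5 probe, placed elsewhere in the gene, -0.09. Rfc3 was above background on 2 arrays of each strain and was not tested.

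On the lagging strand, Fen1, which trims Okazaki fragments, was at 1.64, 1.78 and 1.54 in controls and at 2.15, 1.92 and 2.61 in Yaa glomeruli (0.57 ± 0.20, adjusted p = 0.220). Lig1, the ligase that joins the fragments, was at 2.18, 2.24 and 2.07 in controls and at 2.54, 2.45 and 2.92 in Yaa glomeruli (0.47 ± 0.16, adjusted p = 0.208). Both had all Yaa arrays above all controls. Rpa2, of the complex that covers single-stranded DNA, differed by 0.32 ± 0.25 with overlapping groups.

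Of the G1/S regulators, Ccne1, the cyclin E1 that drives entry into S phase, was at -1.58, -0.88 and -1.54 in controls and at -0.22, -0.11 and 0.79 in Yaa glomeruli. The groups did not overlap, and the difference of 1.49 ± 0.32 missed the threshold (adjusted p = 0.0584 in limma), and of the 16 alternatives it passed in that with an intensity trend and robust variances together (0.0406). Its probe's placement on mm9 spans 24 bases. E2f1, an activating E2F factor, was at 2.03, 2.22 and 1.68 in controls and at 1.99, 1.97 and 1.75 in Yaa glomeruli, a difference of -0.07 ± 0.17. Ccne2, cyclin E2, was above background on 1 array of each strain and was not tested.

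**Figure D3:**
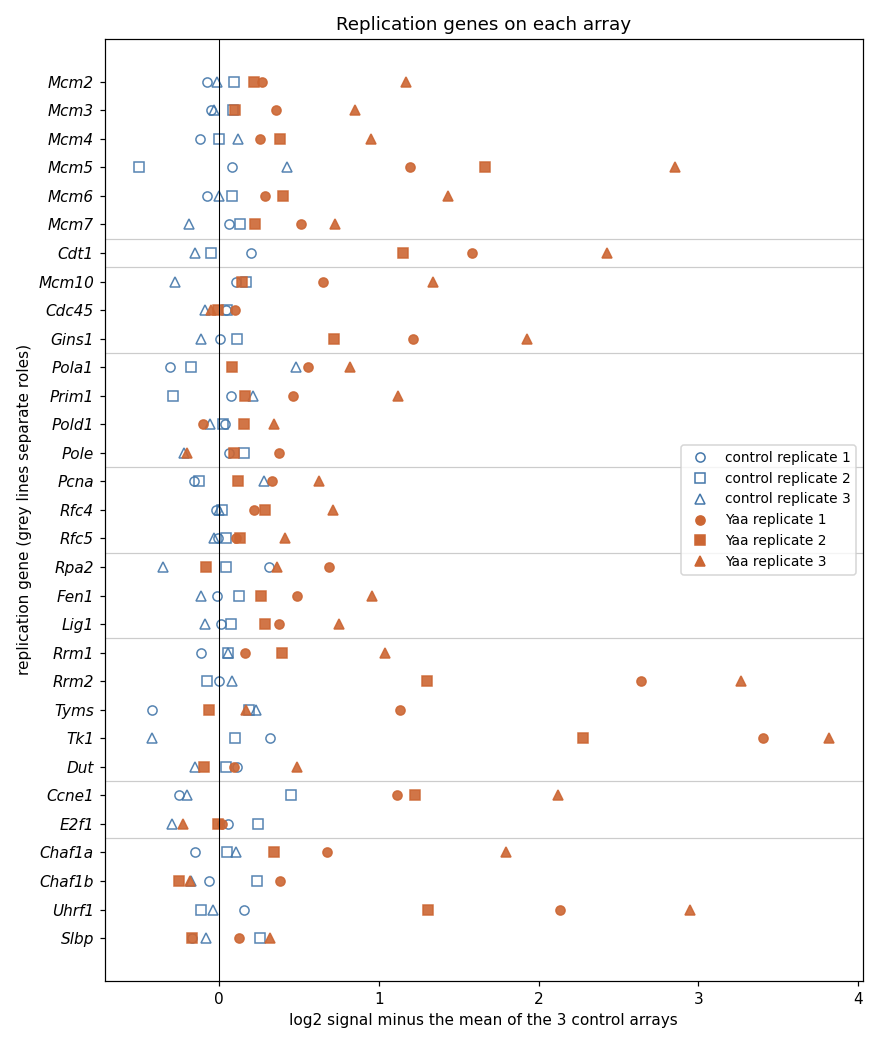
Log2 signal of each tested replication gene on each of the 6 arrays, minus the mean of the 3 control arrays (x axis), with open symbols for controls, filled symbols for Yaa arrays and a shape for each replicate number. Yaa replicate 3 (filled triangles) is the rightmost of the Yaa arrays for 25 of 31 genes, and Yaa replicate 2 (filled squares) for none.

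The 3 Yaa arrays were not alike in these genes. Before scaling, Yaa replicate 3 was also the brightest array, with a 75th percentile of 377 against 235 to 264 on the others. The part of array brightness in the order below was not tested. Yaa replicate 3 had the highest Yaa value for 25 of the 31 genes and replicate 1 for the other 6, whereas replicate 3 was the highest Yaa array for 28.5% of all genes. Yaa replicate 2 had the lowest Yaa value for 20. The median of the 31 genes above the control mean was 0.38, 0.22 and 0.85 on Yaa replicates 1 to 3, beside -0.09, -0.07 and -0.16 over all genes. Without Yaa replicate 3 the members' median fell to 0.32, with 3 genes higher (Tk1, Uhrf1 and Cdt1) and none lower. In that case 30 of 31 had a fold change above 0, and the remaining Yaa arrays both lay above all controls for 18 members, against 9.55% of all genes.

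Among 58 further replication and S phase genes, 52 were tested, of which 6 rose and none fell, and the median log2 fold change was 0.23. E2f7, a repressor in the E2F family, rose by 1.42 ± 0.23 (adjusted p = 0.0200), Asf1b, a histone chaperone, by 2.41 ± 0.46 (0.0376), and Ccna2, the cyclin A2 of S and G2 phase, by 2.44 ± 0.48 (0.0427). The others entered the test through the Yaa arrays alone, with no control array well above background, so their folds are bounds. They were E2f8, a second E2F repressor, at least 4.80-fold higher (adjusted p = 0.0198), Ticrr, which helps origins fire, at least 2.31-fold higher (0.0142), and Dck, the deoxycytidine kinase of nucleotide salvage, at least 2.28-fold higher (0.00581). With the replicate block 5 of this list were higher, with normexp background correction 2, with probes above background on all 6 arrays 3 of 47, with no filter on dim probes 1, and without a control array 1 or 2.

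Genes of mitosis and G2/M had a larger median, 2.01, in the same arrays. Of 32 listed 23 were tested, 8 rose and none fell. Mki67, the proliferation marker Ki-67, rose by 2.67 ± 0.49 (adjusted p = 0.0339), and Kif23 by 2.18 ± 0.28 (0.00709), Cdca8 by 2.27 ± 0.42 (0.0349), Tpx2 by 2.24 ± 0.42 (0.0364), Birc5 by 2.86 ± 0.56 (0.0425) and Nusap1 by 2.07 ± 0.41 (0.0443), all of them genes of the spindle or of cell division. Kif23 and Tpx2 were above background on 1 control array and Nusap1 on 2. These genes entered the test through the Yaa arrays alone, so their differences rest partly on control signals not above background. Top2a was above background on no control array and on 2 Yaa arrays, and at least 2.72-fold higher by the mean of all Yaa arrays. For Cdk1, the mitotic kinase, the brightest probe differed by -0.49 ± 0.32 and did not pass, whereas another probe, above background on all Yaa and no control arrays, was at least 5.20-fold higher. The count of 8 became 1 without Yaa replicate 1 or any single control array, 19 without Yaa replicate 2, and 2 without Yaa replicate 3. With probes above background on all 6 arrays, 5 of 19 were higher and the median was 1.33. With no filter on dim probes the count was 1, and with normexp background correction the median was 0.92. The difference in median between these lists and the 31 members was not tested.

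The median signal of the 23 genes of mitosis and G2/M was -0.02, -1.33 and 0.41 on Yaa replicates 1 to 3 and -1.77, -2.17 and -1.94 on control replicates 1 to 3. Yaa replicate 2 was thus the lowest of the Yaa arrays for this list as well as for most members.

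Of 10 genes that brake the cell cycle, inhibitors and pocket proteins, 1 rose, 9 did not pass and the median was 0.11. Cdkn2a, whose products p16 and p19 restrain entry into S phase, was at -2.88, -3.60 and -4.09 in controls and at -0.10, 1.82 and -0.55 in Yaa glomeruli, a rise of 3.91 ± 0.63 (adjusted p = 0.0198 in limma). It was highest on Yaa replicate 2, which was the highest Yaa array for none of the 31 tested members. The call was lost with normexp background correction, with no filter on dim probes, and without control replicate 2 or 3. Another Cdkn2a probe was above background on no control array and on 1 Yaa array. Cdkn1a, which encodes p21, differed by 0.28 ± 0.17 and did not pass. Of the D-type cyclins and partners, 4 were tested and none passed (median -0.01).

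**Figure D4:**
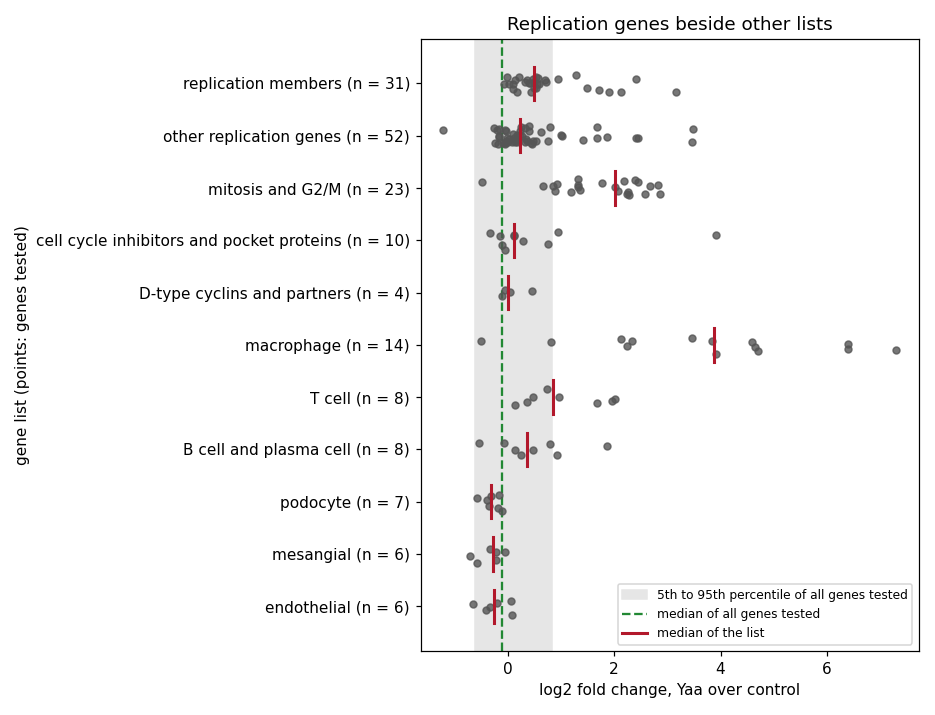
Log2 fold change of Yaa over control (x axis) for each tested gene (points) of the replication members and 10 other lists, with list medians in red, the median of all genes tested as a dashed line and their 5th to 95th percentile shaded. The members' median is 0.49, that of the mitosis and G2/M list 2.01 and that of the macrophage list 3.88.

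Markers of macrophages rose in Yaa glomeruli, 12 of the 14 listed, and none fell. Some of the 12 were above background on 1 control array and entered the test through the Yaa arrays alone. With probes above background on all 6 arrays, 9 of 11 were higher and the median was 3.47. Over all 14 markers the median was 3.88. Their summed signal, in multiples of the array's 75th percentile, was 145 to 181 in controls and 267 to 296 in Yaa glomeruli. Itgam, which differed by -0.50 ± 0.35 and did not pass, made up 123 to 156 of the control sums, and without it the sums were 22.1 to 25.9 in controls and 135 to 218 in Yaa glomeruli. Adgre1, which encodes F4/80, rose by 4.65 ± 0.20 and Csf1r, the receptor for colony-stimulating factor 1, by 2.13 ± 0.13. The same sum over the 31 members was 64.1, 68.4 and 64.6 in controls and 89.3, 77.8 and 122 on Yaa replicates 1 to 3. The part of macrophage number in the members' differences was not tested.

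Of the 8 T cell markers tested none passed, with a median of 0.84 and a summed signal of 7.01 to 9.13 in controls and 11.6, 8.80 and 21.8 on Yaa replicates 1 to 3. Cd3g, a chain of the T cell receptor complex, was at -1.79, -2.96 and 0.60 on those arrays, and Cd5 at -0.72, -1.56 and 1.54. Of the 8 markers 6 were highest on Yaa replicate 3 and lowest on Yaa replicate 2 among the Yaa arrays, the order of the members' medians. Cd4 was highest on replicate 2 and lowest on replicate 3, and Cd8a was highest on replicate 1. Of the 14 macrophage markers 0 had the members' order, and 12 were lowest on Yaa replicate 1. The summed signal of the erythroid markers, which weighs the brightest genes most, had that order. It was 200, 166 and 338 on Yaa replicates 1 to 3, with 191 to 261 in controls. The median of the erythroid markers did not have it, at 3.37, 3.70 and 3.66 on Yaa replicates 1 to 3. The part of any of these cell types in the members' order was not tested. Of 8 B cell and plasma cell markers, 1 rose (Jchain, 1.87 ± 0.32) and none fell. That call was lost with the replicate block, with no filter on dim probes, and without any single control array. Of the neutrophil and erythroid markers none passed, and the erythroid gene Klf1 was above background on no array. Of the podocyte, mesangial and endothelial markers none passed, with medians of -0.32, -0.28 and -0.26.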

How the data were processed

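The authors deposited scanner output of 6 one-colour arrays as linear signal intensity, made with Agilent Feature Extraction 10.7.3.1 per the file headers (9.5.3 per the submitters' processing notes). The processed signal intensity was background-subtracted, with surrogate values for dim spots, per the file headers.

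Here 3671 control spots and spots with outlier flags (121 to 166 per array) were left out, log2 was taken, spots of a probe were averaged and each array's 75th percentile was subtracted. Probes were kept (28598 of 55681) where, on each of the 3 arrays of a group, a share of 0.5 or more of the spots exceeded background by the scanner's own flag. Differences were tested two-sided with lmFit and eBayes of limma 3.58.1, run in R 4.3.3 (Benjamini-Hochberg over 20716 genes, threshold 0.05), which was checked on simulated data. Where a fold is given as at least a value, each control array took the probe's own signal or, if higher, the array's lowest signal of any probe well above background. The Yaa side was the mean of all Yaa arrays at the probe's own signals, including any not above background.

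Deviations from the group means correlated at 0.126, 0.205 and 0.218 between arrays of the same replicate number and at -0.194 to 0.028 otherwise, so the numbers were taken as pairs in an alternative fit. No label states this pairing, and the numbers run with the slide rows. Alternatives were normexp correction (offset 50), quantile and median scaling, other filters on dim probes, the mean of a gene's probes, intensity-dependent robust variances, the replicate block and each array left out. A percentile over spots, and normexp on the same probe, were chosen after seeing the data.

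The members and lists were chosen with earlier results of these data known. The text names all members, their other probes that turned direction or passed, up to 6 genes past the test of each related list with the smallest adjusted p, Mki67, Top2a, Cdk1, Ccna2 and Cdkn1a, every inhibitor past the test and up to 2 markers per cell type. Other probes given beside these, Itgam, Cd4, Cd8a and the erythroid gene above background on no array, were added after their values were seen. Some marker genes are not reported here.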

Additional observations from a re-analysis of the deposited data

How the results depend on the processing

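Over the 31 tested members and 16 alternatives, 455 of the log2 fold changes kept their direction and their side of the threshold, 19 lost the call, 3 gained it and 19 changed sign without a call before or after, all of the last in Cdc45, Pole, E2f1, Chaf1b and Slbp. The lost calls were those of Cdt1, Rrm2 and Uhrf1. No called gene reversed. With no filter on dim probes 396 genes passed in all and 2 members were higher, Tk1 and Cdc6. The value of Cdc6 came from signals above background on no control array and on 1 Yaa array. Cdt1 (adjusted p = 0.126 in limma), Rrm2 (0.135) and Uhrf1 (0.117) missed the threshold. The log2 fold changes of Cdt1 and Rrm2 were unchanged, at 1.72 and 2.40. Their SE were 0.35 and 0.49, beside 0.32 and 0.46 as reported. The cause of the lost calls was not tested. With the replicate block 1 member, Tk1, remained higher. With 1 array left out at a time, 395 to 1027 genes passed, 1 to 5 members higher, 0 lower, and a median log2 fold change of the members of 0.32 to 0.62. With normexp correction, scaling to the quantiles or to the median, probes above background on all 6 arrays or the mean of a gene's probes, 4 members were higher, and with intensity-dependent robust variances 5, Ccne1 being added. The median over all genes stayed between -0.14 and -0.06. The number of pools, 3 per strain, limits the precision of all values, and Cdc6, Gins2, Rfc3 and Ccne2, near the background, have a bound or no test.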
